A study of Mus musculus with 3 samples.

Results

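A single IgA heavy chain was read from 193 of the 2014 barcodes in the heavy chain table of a mouse spleen B cell experiment. These barcodes, called members here, carry any contig of the clone with the most contigs (constant gene IGHA, V gene IGHV1-42, J gene IGHJ3). The gene matrix of the same lane holds 191 of them among 2836 barcodes. They were compared with 1539 barcodes of the matrix whose heavy chains all belong to other clones. The remaining 1106 barcodes gave no heavy chain. Of the barcodes, 1730 are shared by the gene and heavy chain tables, 2831 by the gene and hashtag tables, and 284 occur only in the heavy chain table. The members were picked by their heavy chain, so Igha and Ighv1-42 are given below as a description, with no test.

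The cells came from the spleens of 6 mice, 3 of them LDHA-deficient and 3 LDHA-sufficient. LDHA is a lactate dehydrogenase subunit, an enzyme that reduces pyruvate to lactate. Each mouse's cells were stained with a hashtag, an antibody against surface proteins that carries a DNA tag, then sorted for viable B cells and by GL7, a marker of activated and germinal centre B cells. All 6 mice shared 1 droplet lane, so each group is a set of barcodes and not a library of its own. The sources used here do not give the alleles, the Cre driver if any, the strain, the age or the immunisation of the mice. The hashtag and heavy chain libraries are labelled HSPCs, which conflicts with the B cell sort described for the same lane. UMIs (unique molecular identifiers, 1 for each captured RNA molecule) are the counts throughout.

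An antibody is built from a heavy chain and a kappa or lambda light chain. Each chain has a variable part joined from gene segments and a constant part that sets its class. Each B cell joins its own segments, and the junction between them differs from cell to cell. IgA is the class of mucosal surfaces. It is secreted by plasma cells, the end stage of the B lineage, often as dimers held by the J chain, the product of Jchain. Plasma cells fill much of their RNA with antibody transcripts, expand the secretory pathway under the transcription factor Xbp1, and silence genes of B cell identity such as Pax5.

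The chain is printed because its identity in every member defines the set. All 193 contigs held 1 V to J sequence of 364 bases and 1 junction of 48 bases. Capitals mark the 4 bases that differ from the germline genes in the deposited alignment. The first 294 bases are the V segment, and the junction, which sets a clone apart, runs from base 286 to base 333. The printed stretch of 300 bases holds all 4 differences.

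shared IgA heavy chain, bases 65 to 364: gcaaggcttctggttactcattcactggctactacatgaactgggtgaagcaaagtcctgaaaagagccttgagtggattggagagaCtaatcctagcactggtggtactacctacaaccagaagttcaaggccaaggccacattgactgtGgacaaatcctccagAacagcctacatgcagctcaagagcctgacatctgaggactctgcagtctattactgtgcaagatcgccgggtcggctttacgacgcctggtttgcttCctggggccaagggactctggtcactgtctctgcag

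junction of the shared chain: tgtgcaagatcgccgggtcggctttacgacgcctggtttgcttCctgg

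Counted from 1 at the first V base, the germline base first, the differences were T152C, A216G and C231A in the V segment and A329C after it. The V identity was 98.98%, against a median of 97.3% (94.9 to 100) in the 49 other IgA contigs and 100% (93.1 to 100) in the 2048 contigs of all other clones. Whole contigs came in 107 versions of 593 to 671 bases, which differed only outside the V to J sequence, and all 193 contained it. Of the clones, 22 others used IGHV1-42, with 1 contig each, and none had this junction. Ighv1-42 lies at chr12:114937113-114937544 on the minus strand of GRCm38 (GENCODE M21), and Igha at chr12:113254830-113260236 on the same strand.

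The shared chain was also read more deeply than the rest. Its 193 contigs held a median of 80 UMIs (2 to 233). Contigs of all other clones held a median of 11 and other IgA contigs 5 (1 to 4336). In the 191 members of the gene matrix the shared chain had 38 to 233 UMIs. Median reads per contig were 29680 for the shared chain against 1571 for all other clones. The lower of the 2 members missing from the gene matrix had 2 contig UMIs. No member carried a heavy chain contig of another clone. The next clone by size, IgA with IGHV1-85, had 16 contigs with a median of 2 UMIs, and the third, with IGHV5-17, had 11 contigs in 10 distinct V to J sequences.

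The members were small and even in RNA content. They held a median of 2384 UMIs (1345 to 4298) and 1132 genes (721 to 1632). The coefficient of variation (SD over mean) of their UMIs was 18.3%. The 1136 other heavy chain barcodes with a single hashtag held a median of 4317.5 UMIs (1071 to 54313), with a coefficient of variation of 92.7%. Mitochondrial genes gave a median of 4.06% of UMIs in members (2.64 to 5.31%) and 2.24% in the others (0 to 11.2%).

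Most members could not be given to a mouse. Hashtags were called as none in 132 of 191 members (69.1%, exact Clopper-Pearson interval 62.0 to 75.6%), as single in 37 (19.4%, 14.0 to 25.7%) and as more than 1 mouse in 22 (11.5%, 7.36 to 16.9%). Of the other heavy chain barcodes 0.455% had none, 73.9% a single and 25.7% more than 1. Every member held UMIs of all 6 hashtags. The leading hashtag took a median of 34.8% of a member's hashtag UMIs (21.9 to 75%), and 40.1% in the 37 members called single. In other barcodes with a single hashtag it took 88.0%. The members' hashtag UMIs, summed, were 29.9%, 9.57% and 8.62% of the LDHA-sufficient mice 1 to 3 and 17.7%, 17.2% and 17.1% of the LDHA-deficient mice 1 to 3. Over other heavy chain barcodes the same shares were 24.0%, 10.6%, 11.4%, 15.9%, 21.9% and 16.3%. Hashtag UMIs per member ranged from 82 to 4268, a coefficient of variation of 108%. Members thus varied far more in hashtags than in RNA.

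**Figure D1:**
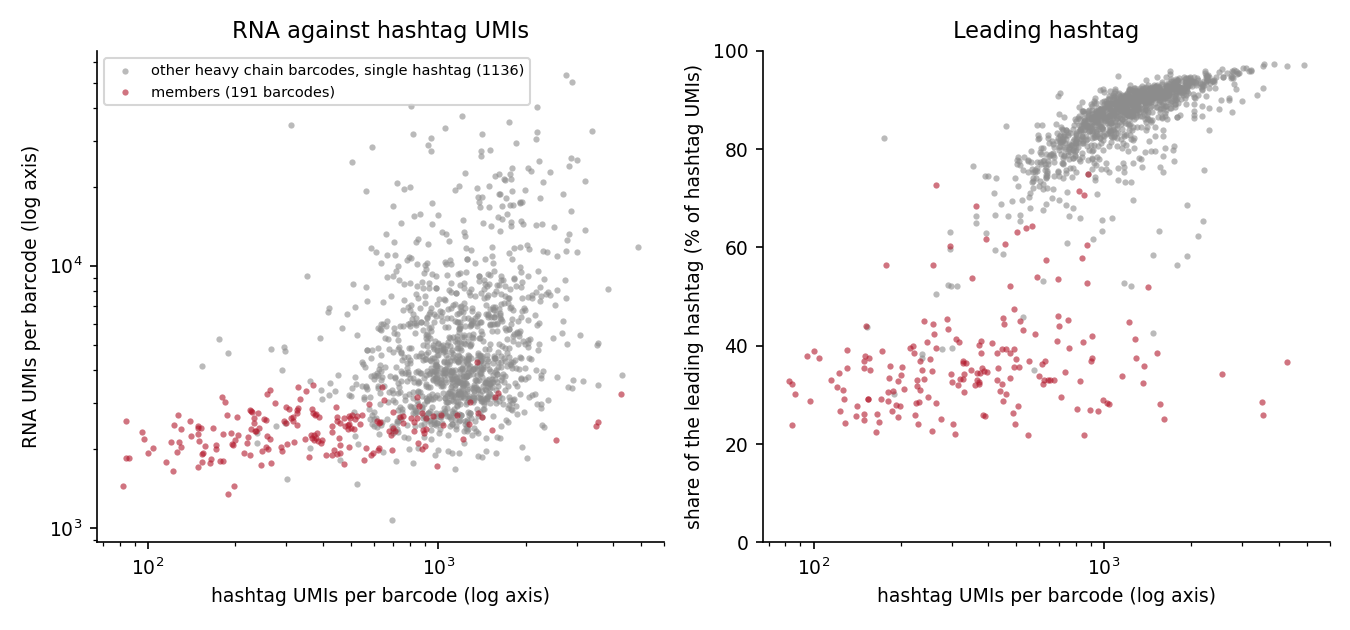
RNA UMIs (left, log axis) and the share of the leading hashtag (right, in %) against hashtag UMIs per barcode (log axis). Each point is a barcode: the 191 members stay between 1345 and 4298 RNA UMIs across the hashtag range, and their leading hashtag has a median of 34.8%, against 88.0% in the 1136 other heavy chain barcodes with a single hashtag.

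Gene counts varied little from member to member. Each barcode was thinned to 1000 UMIs, and the variance of a gene's count over barcodes was divided by its mean, a ratio that is about 1 when counts differ by random sampling alone. Over 171 genes with a mean of at least 0.5 in both sets, the ratio had a median of 1.00 in members (quartiles 0.933 and 1.09) and 1.41 in the other single-hashtag barcodes (1.22 and 1.67). It was above 1.3 for 4 genes in members and for 107 in the others, and higher in the others for 165 of 171. The genes above 1.3 in members were AY036118 (13.0), Igha (2.82), Gm42418 (1.65) and Rplp1 (1.34). Transcripts that set B cells apart from each other were even in members. Ighm had a ratio of 0.938 against 32.2 in the others, the lambda segment Iglv1 0.913 against 38.9, and Jchain 0.843 against 29.1.

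**Figure D2:**
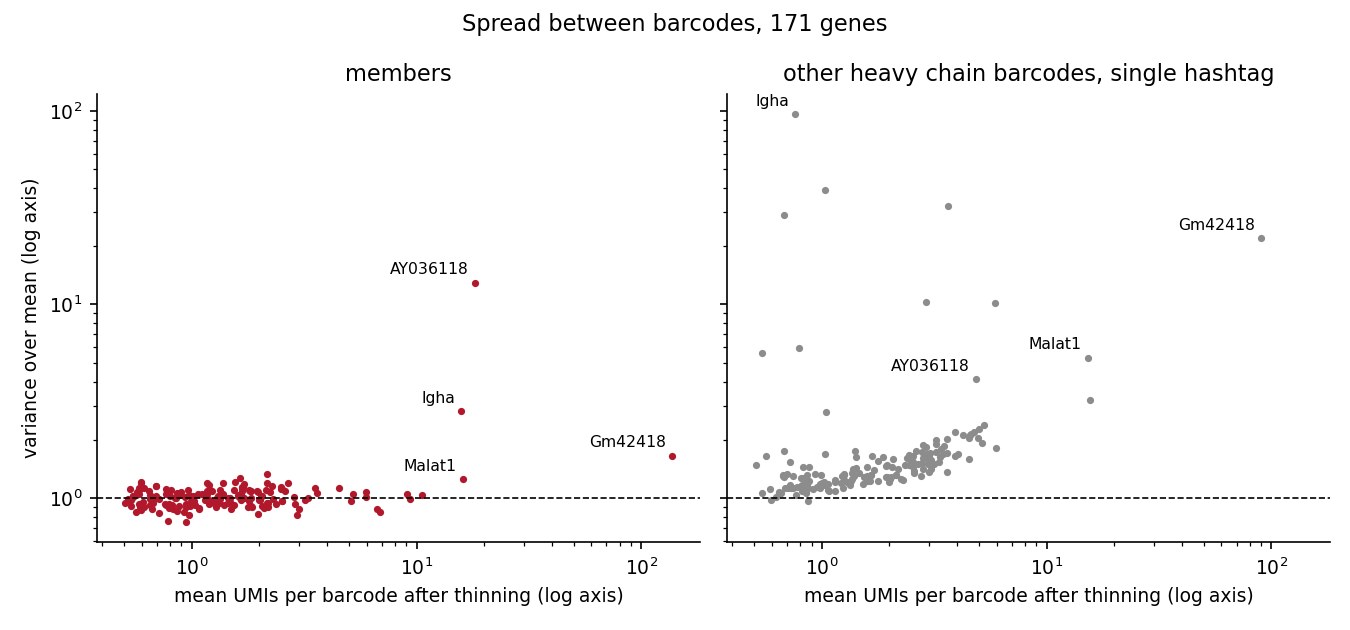
Variance over mean of the UMI counts of 171 genes over barcodes thinned to 1000 UMIs, against the mean (both log axes), in members (left) and other single-hashtag heavy chain barcodes (right). Each point is a gene and the dashed line marks 1: members lie along it (median 1.00) apart from the named genes, and the others lie above it (median 1.41).

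Every member held the transcripts of 1 heavy and 1 kappa V segment above all others. Ighv1-42 gave 11877 UMIs over the members, 29 to 105 in each (median 61), and made up 96.1% of all heavy chain V UMIs. Igkv4-72, a kappa V segment at chr6:69226854-69227433 on the minus strand, gave 14331 UMIs, 42 to 139 in each member (median 75), and 92.3% of kappa V UMIs (83.3 to 98.4% in each). Its coding part has 352 bases in 2 exons, leader included. The first 300 are printed, as the light chain segment of the set, from the GENCODE M21 reference (GRCm38) with no base capitalised. The members' own light chain sequence is not analysed here.

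Igkv4-72, first bases of the coding part: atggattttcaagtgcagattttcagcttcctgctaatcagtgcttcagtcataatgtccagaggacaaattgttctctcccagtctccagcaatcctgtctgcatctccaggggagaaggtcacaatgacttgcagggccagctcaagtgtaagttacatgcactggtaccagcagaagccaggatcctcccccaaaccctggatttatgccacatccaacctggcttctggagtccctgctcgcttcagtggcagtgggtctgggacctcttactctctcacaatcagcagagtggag

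In counts per 1000000 UMIs (CPM), Igkv4-72 stood at 29429, 32136, 30549, 29212 and 31391 in the members of LDHA-sufficient mice 1 to 3 and LDHA-deficient mice 1 and 3. In other heavy chain barcodes of the 6 mice it ranged from 3.20 to 47.0 (median 12.9). The sets did not overlap. The log2 difference was 11.002 (SE 0.56, edgeR adjusted p = 0.000226), and over all members the level was 1787 times that of other single-hashtag barcodes. The Igkv4-69 and Igkv4-90 coding sequences are 95.4% and 88.6% identical to Igkv4-72, so reads could be split among these copies. Only 1.89% of the 2645 barcodes outside the set held an Ighv1-42 UMI and 5.14% an Igkv4-72 UMI.

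**Figure D3:**
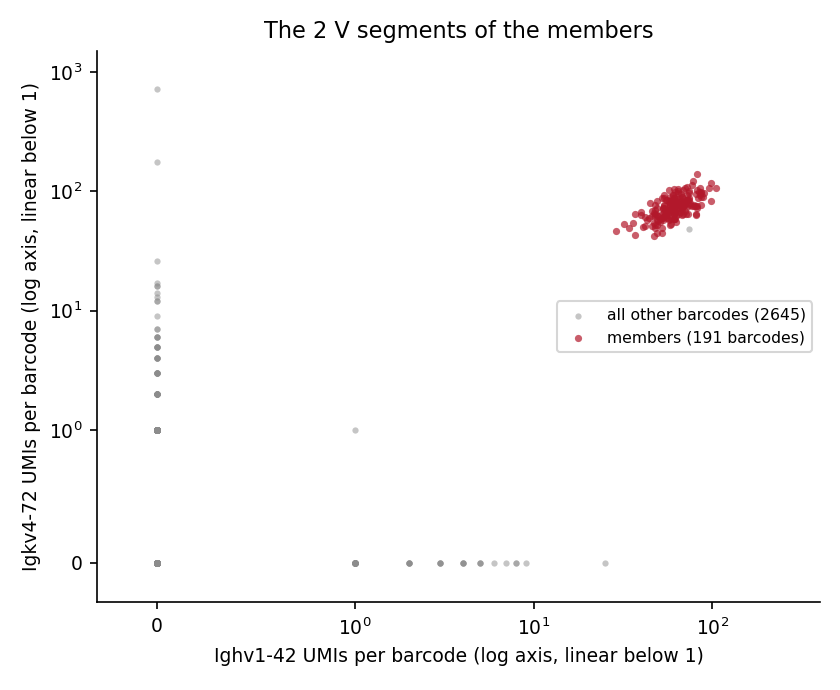
Igkv4-72 against Ighv1-42 UMIs per barcode (log axes, linear below 1). The 191 members form 1 cloud at 29 to 105 Ighv1-42 and 42 to 139 Igkv4-72 UMIs, 1 other barcode lies beside it, and the rest of the 2645 other barcodes lie on the axes or hold 1 UMI of each.

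The members also held other antibody segments at low levels. Other heavy chain V segments gave 1049 CPM over 62 of 185 segments detected, against 4552 CPM (without Ighv1-42) in other single-hashtag barcodes. Other kappa V segments gave 2624 against 11541 CPM, with 67 of 160 kappa segments detected. Iglv1 was at 1079.7 CPM (95% interval 986 to 1179, Poisson, counting error only, as all intervals on CPM below) and at 0 to 7 UMIs in each member. In the other barcodes of the 6 mice it ranged from 519.6 to 4169.9 CPM, on both sides of that level. Iglv1 fell in the summed counts (log2 -0.96, adjusted p = 2.18e-05). It did not pass with DESeq2 (-0.51, adjusted p = 0.355), without a mouse term (-1.20, 0.300) or with thinned barcodes (-0.12, 0.898). An Iglv1 UMI was held by 92.1% of members and 63.7% of other single-hashtag barcodes. With thinned barcodes these shares were 64.9% and 27.6%. Iglv1 was thus found in a larger share of members, and its fall describes the sums only. The lambda segment Iglv2 gave 12 UMIs (26.3 CPM) against 743 CPM in the others and fell (log2 -5.44, adjusted p = 1.83e-23), but not without the mouse term (adjusted p = 0.214). Kappa segments that fell included Igkv12-46, with 6 UMIs over all members against 1001 CPM in the others (84.4 to 4098 by mouse), and Igkv12-44, with 2 UMIs against 398 CPM. Igkv6-32 rose (263 against 82.7 CPM, log2 1.42, adjusted p = 0.0104), but not without LDHA-sufficient mouse 1 (adjusted p = 0.0514) or mouse 3 (0.469), and the latter had 571 CPM against 179.8 to 228 in the members of the other mice.

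Igha, the constant gene of the contigs, stood above Ighm and Ighd, but most members held Ighm and Ighd UMIs as well. Igha stood at 16016 CPM in members (15651 to 16387), 15 to 156 UMIs in each, and at 102 to 5056 CPM (median 739) in other barcodes by mouse. In those, 13 barcodes held 94.8% of the Igha UMIs of all other heavy chain barcodes, with up to 3551 in 1 barcode. Across members, Igha UMIs ran with contig UMIs (Pearson r = 0.85, Spearman rho = 0.77, 191 barcodes, which share depth), a description with no test. Igkc, the kappa constant region, was at 10849, 10742, 9935, 10345 and 11015 CPM in the members of the 5 mice, above the 2303 to 6054 of the others, and rose (log2 1.17, SE 0.14, adjusted p = 4.48e-14). It missed the threshold without the mouse term (adjusted p = 0.0631) and in the 11 members with a leading hashtag of 50% or more (log2 0.46, 0.210). In the fit of those 11 the median log2 over all genes was -1.32. Kappa made up 83.5% of light chain constant UMIs in members and 61.8% in the others. The lambda constant genes together stood at 2081 CPM in members against 2411 in the others. Ighm, the constant region of IgM, was at 2098, 2382, 3026, 2987 and 2112 CPM against 2569 to 5209 (median 4545), and fell (log2 -1.11, SE 0.16, adjusted p = 3.26e-10). Ighd, that of IgD, did not pass (784 against 686 CPM, adjusted p = 0.709).

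Members with and without a mouse call held much the same RNA. Ighv1-42 was at 26496, 24971 and 25042 CPM in members with no hashtag, a single hashtag and more than 1 hashtag. Igkv4-72 was at 31880.5, 30876 and 29545 CPM, and Jchain at 6703, 6552 and 6205 CPM. The highest class was 1.04 times the lowest for mitochondrial genes, 1.03 times for ribosomal protein genes and 1.02 times for B cell genes. AY036118 had a ratio of 1.67, at 17290 and 16514 CPM in the first 2 classes and 27569 in members with more than 1 hashtag. Cd79a had a ratio of 1.46, at 1578 and 1393 CPM in the first 2 classes and 2028 in members with more than 1 hashtag. The ratio was 1.94 for Tmem176b and 1.73 for Vcam1, which rest on few UMIs.

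**Figure D4:**
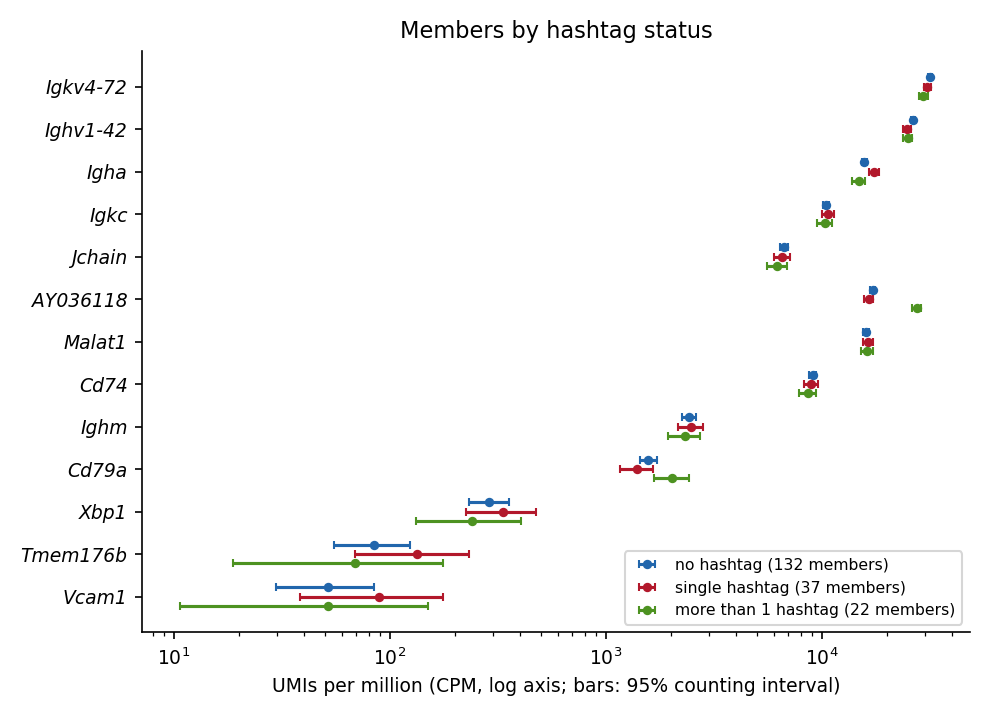
CPM of 13 genes (log axis) in members with no hashtag (132), a single hashtag (37) and more than 1 hashtag (22), with 95% Poisson counting intervals. The 3 classes lie close together for most genes, from 29545 to 31880.5 CPM for Igkv4-72, while AY036118 and Cd79a are higher in members with more than 1 hashtag.

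Genes were tested between members and other heavy chain barcodes with the same hashtag calls. UMIs were summed by mouse over the single-hashtag barcodes of each set, with the mouse as a term, by the edgeR quasi-likelihood test. The sums held 7, 9, 7, 6 and 7 members. LDHA-deficient mouse 2 had 1 such member and did not enter. A gene is said below to have risen or fallen where the Benjamini-Hochberg adjusted p was under 0.05 both with TMM scaling, whose values are printed, and with library totals. On simulated counts the TMM fit put unchanged genes at a median log2 of -0.43 and made 14 false calls among 53, all lower. Library totals gave -0.06 and 0 false calls there. In the real counts library totals put the median of all genes tested at -0.27, a shift the simulated counts did not show. The 0 false calls may therefore not hold for the falls in the real counts. Of 5146 genes, 189 passed (3.67%): 19 rose (0.369%), Ighv1-42 of the rule among them, and 170 fell (3.3%). The falls included other heavy chain V segments, such as Ighv1-9 and Ighv10-1, which the choice of members by 1 heavy chain favours. With TMM alone 351 passed (6.82%) and 332 were lower (6.45%), and the median log2 over all genes was -0.53 (-0.27 with library totals). DESeq2 called 32 higher and 59 lower. Whether the RNA of these 36 members came from the mouse of their leading hashtag was not tested, so the member sums may not stand for separate animals. The SE and adjusted p of this test may then not measure the spread between mice. The mouse of a member here means its hashtag call. Depth and mitochondrial share differed between the sets too. With every barcode thinned to 1000 UMIs, 24 genes were higher and 57 lower of 1120 tested, and the part of the mitochondrial share was not tested.

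The 155 members outside the sums showed mostly the same directions. All 19 genes that rose, Ighv1-42 of the rule among them, were above every one of the 6 mice there, and 160 of the 170 that fell were below every mouse. The 170 include other heavy chain V segments, on which the rule also bears. Of all genes tested, 16.8% and 40.4% were. The other barcodes are the ones of the fit, so these counts are a description and no separate test. The 10 largest falls outside antibody genes, such as the splicing factor gene Snrpc and the RNA binding protein gene Ybx3, rested on 0 UMIs in the 36 members. Over all members they gave 4 to 27 UMIs, and 8 of the 10 were below every mouse in the 155. Their fitted log2 values are therefore no measure of size, and 4 of them, Pola1, H2-M3, Tipin and Txndc17, missed the threshold with library totals (adjusted p = 0.0644 to 0.0749).

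Plasma cell genes were mixed. Of 17 on the list, 9 were tested, 2 rose (Xbp1 and Tmem176b) and none fell, against 0.369% and 3.3% of all genes tested. Tmem176b, like Jchain, Tmem176a, Prg2 and Endou of the list, is a marker that was chosen on these data. Jchain stood at 7193, 5888, 6452, 6702 and 6735 CPM in the members of the 5 mice and at 202 to 3404 (median 1085) in the others. These ranges did not overlap, but the difference did not pass (log2 1.96, SE 0.58, adjusted p = 0.193). Xbp1 was at 359.6, 269.7, 399.7, 146 and 399.5 CPM against 65.2 to 157 and rose (log2 1.13, SE 0.36, adjusted p = 0.0281). These Xbp1 sums hold 2 to 7 UMIs each, and leaving out any of LDHA-sufficient mice 1 to 3 or LDHA-deficient mouse 3 ended the call (adjusted p = 0.0587, 0.0974, 0.130 and 0.275), as did the lack of an expression filter (0.264). Irf4, a transcription factor of activated B and plasma cells, did not pass (171 against 102 CPM, adjusted p = 0.381). Mzb1, an endoplasmic reticulum protein that helps assemble antibodies, stood at 451 against 609 CPM and passed with TMM only (log2 -0.90, adjusted p = 0.00818, library totals 0.145). Some defining genes gave few UMIs. Prdm1, the transcriptional repressor of the fate, gave 6 UMIs (13.1 against 10.8 CPM, 0.825 to 21.3 by mouse). The syndecan gene Sdc1 gave 3 (6.57 CPM against 4.12 to 17.0 by mouse) and the survival receptor gene Tnfrsf17 5. Prdm1 and Sdc1 were thus within the range of the mice of the others.

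Of 21 secretory pathway genes tested, none rose and 1 fell, against 0.369% and 3.3% of all genes tested. Hsp90b1, a chaperone of the endoplasmic reticulum, was at 659, 494, 685, 656 and 571 CPM against 594 to 1418 (median 981; log2 -1.11, SE 0.20, adjusted p = 3.32e-06). The chaperone gene Hspa5 (339.5 against 602 CPM) and the disulphide isomerase gene Pdia6 (103 against 203 CPM) passed with TMM only (edgeR adjusted p with library totals of 0.0672 and 0.0526). The list's median log2 was -0.68, near the -0.53 of all genes tested.

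Against other IgA barcodes Igkc and Xbp1 stood the other way. Only LDHA-sufficient mice 1 and 3 had 5 or more such barcodes, 6 each. There Igkc was lower in members (log2 -2.95, adjusted p = 3.06e-29), as was Xbp1 (-2.04, adjusted p = 0.0001), and Cd74 (0.39) and Ighm (1.49) turned to positive values that did not pass (adjusted p = 0.227 and 0.191). Igkc and Xbp1 in members were thus above other heavy chain barcodes and below other IgA barcodes, the latter over 2 mice only.

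Of the 6 marker genes named with the set, the 3 that reached 20 CPM on average (Igha, Jchain and Tmem176b) were above every mouse of the others in the summed members, as were 16.5% of all genes at that level. The markers were chosen on these data and are no independent evidence. Tmem176b, a membrane protein gene, gave 42 UMIs. It was at 119.9, 179.8, 57.1, 146 and 114 CPM in the 5 sums (1 to 4 UMIs each) against 0 to 23.3 (median 6.37), and rose (log2 3.53, SE 0.61, adjusted p = 1.15e-06). Its neighbour gene Tmem176a gave 27 UMIs (59.1 CPM, 39.0 to 86.0) against 0 to 18.8, and Prg2, a granule protein gene of eosinophils that plasma cells also express, 17 UMIs (37.2 CPM, 21.7 to 59.6) against 0 to 5.37. Neither was abundant enough for the test. Endou, an endoribonuclease gene, gave 6 UMIs (13.1 CPM, 4.82 to 28.6), within the 2.76 to 26.9 of the mice. Ccr10, the homing receptor of IgA plasma cells, was named after its values were seen and gave 13 UMIs (28.5 CPM) against 0 to 7.16.

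Vcam1 rose, and some genes known from macrophages gave UMIs. Vcam1, an adhesion molecule of stromal cells and macrophages, was at 119.9, 89.9, 57.1, 146 and 57.1 CPM (1 or 2 UMIs a sum) against 0.641 to 16.6 (median 2.27), and rose (log2 3.95, SE 0.71, adjusted p = 1.24e-05). It did not pass against all other single-hashtag barcodes, which include those without a heavy chain (log2 1.33, adjusted p = 0.240). The following genes were chosen after their values were seen, and were too low to test. Spic, the transcription factor of red pulp macrophages, gave 9 UMIs (19.7 CPM, 9.01 to 37.4) against 0 to 0.895 by mouse. Slc40a1, the iron exporter, gave 23 UMIs (50.4 CPM, 31.9 to 75.6) against 0 to 13.0, and the engulfment receptor gene Mertk 15 UMIs (32.9 CPM, 18.4 to 54.2) against 0 to 0.895. Among the 12 myeloid markers, the complement genes C1qa, C1qb and C1qc gave 10, 13 and 13 UMIs (21.9, 28.5 and 28.5 CPM) against at most 5.53 CPM by mouse, and Csf1r 16 UMIs (35.0 CPM) against at most 6.91. Barcodes without a heavy chain, summed, were at 27.2, 28.4 and 21.8 CPM for C1qa, C1qb and C1qc, 21.5 for Csf1r and 23.1 for Slc40a1. For the C1q genes the members were thus near the level of barcodes without a heavy chain. They were at 3.93 CPM for Mertk and 7.87 for Spic. Others of the list did not follow. Tyrobp, a signalling adaptor gene, was at 10.95 CPM against 23.7 to 78.8 by mouse, and Cst3, a protease inhibitor gene, at 153 against 153. Lyz2 gave 1 UMI, and the list as a whole stood at 329 CPM in members and at 197 to 306.9 in the mice of the others. The UMIs of Vcam1, Spic, Slc40a1, Mertk, Csf1r and the C1q genes were spread thin, at most 2 in a member for each gene. Their source was not tested.

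Mitochondrial genes rose together. All 13 mitochondrially encoded genes had positive log2 values and 8 rose, against 0.369% of genes tested. The list made up 3.70 to 4.13% of UMIs in the member sums and 2.18 to 2.60% in the others. mt-Nd6, a subunit of respiratory complex I encoded on the opposite strand to most of its neighbours, was at 719, 674, 685, 291 and 457 CPM against 76.9 to 129.9, the largest difference of the list (log2 2.13, SE 0.29, adjusted p = 1.44e-10). mt-Atp8, a subunit of the ATP synthase, was at 779 to 1384 CPM against 390 to 445 (log2 1.03, SE 0.21, adjusted p = 2.93e-05). In the members with a leading hashtag of 50% or more, 11 barcodes of 4 mice, mt-Nd6 and mt-Atp8 kept positive log2 values but did not pass (adjusted p = 0.0800 and 0.794, the latter at log2 0.17), and mt-Nd1 and mt-Nd3 had log2 values of -0.05 and -0.14. The latter pair did not pass with no expression filter (adjusted p = 0.244 and 0.0707). The median log2 over all genes was -1.32 in the fit of the 11 barcodes and -1.16 with no expression filter. In the main fit it was -0.53, so log2 values of these fits are not on 1 scale.

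Transcripts that collect ribosomal RNA reads rose as well. Gm42418 (chr17:39846958-39848788) took 137583 CPM in members, 163 to 818 UMIs in each, against 63806 to 100148 CPM by mouse, and rose (log2 0.58, adjusted p = 2.04e-06). AY036118, an overlapping gene on the opposite strand, was at 11911 to 24428 CPM in the member sums against 4440.2 to 5598 by mouse and rose (log2 1.38, adjusted p = 9.27e-23). The sources used here do not say whether counting used strand, so reads of these overlapping genes cannot be told apart. Lars2, the mitochondrial leucyl-tRNA synthetase gene, chosen after its values were seen, rose too (9365 against 5682 CPM, log2 0.42, adjusted p = 0.0333). Gm42418 and Lars2 had log2 values of -0.22 and -0.42 in the 11 members with a leading hashtag of 50% or more, where the median of all genes was -1.32. Neither passed with no expression filter (adjusted p = 0.193 and 0.926), where that median was -1.16. Lars2 also missed the threshold without each of 4 of the mice (adjusted p = 0.0678 to 0.398).

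Cytoplasmic ribosomal protein genes fell together. Of 80 tested, 63 fell and none rose, against 3.30% of genes tested, with a median log2 of -0.95 (-0.67 with library totals). They made up 12.6 to 13.3% of UMIs in the member sums and 19.3 to 21.9% in the others, with no overlap. Rpl41 was at 2877, 3326, 2455, 3569.6 and 3253 CPM against 5091 to 5933 (log2 -1.17, SE 0.15, adjusted p = 4.05e-12), and Rps2 at 1214 to 1967 against 2436 to 3137 (log2 -1.27, SE 0.17, adjusted p = 9.06e-11). No nuclear RNA passed under both scalings. Malat1 was at 16158 CPM in members, above the 9553 to 14194 of the mice, and passed with library totals (log2 0.41, adjusted p = 0.0014) but not with TMM (0.13, 0.646).

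Some B cell genes were lower in members. All 20 were tested, 6 fell and none rose, against 3.3% and 0.369% of all genes tested. The median log2 of the list was -0.58 (-0.30 with library totals), near the -0.53 (-0.27) of all genes. The list stood at 28309 CPM against 33054 to 41973 by mouse. Cd79a, a signalling chain of the B cell receptor, was at 1379, 1393, 1370.4, 1529.8 and 1199 CPM against 1988 to 2911 (log2 -1.15, SE 0.17, adjusted p = 6.47e-09). Members with more than 1 hashtag, which are outside these sums, stood at 2028 CPM (1679 to 2429) for Cd79a, within the range of the mice. Cd74, the invariant chain of MHC class II, was at 7819 to 10490.3 CPM against 11235 to 15023 (log2 -0.84, SE 0.13, adjusted p = 1.54e-08). Pax5, which plasma cells silence, did not pass (394 against 395 CPM, adjusted p = 0.847).

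**Figure D5:**
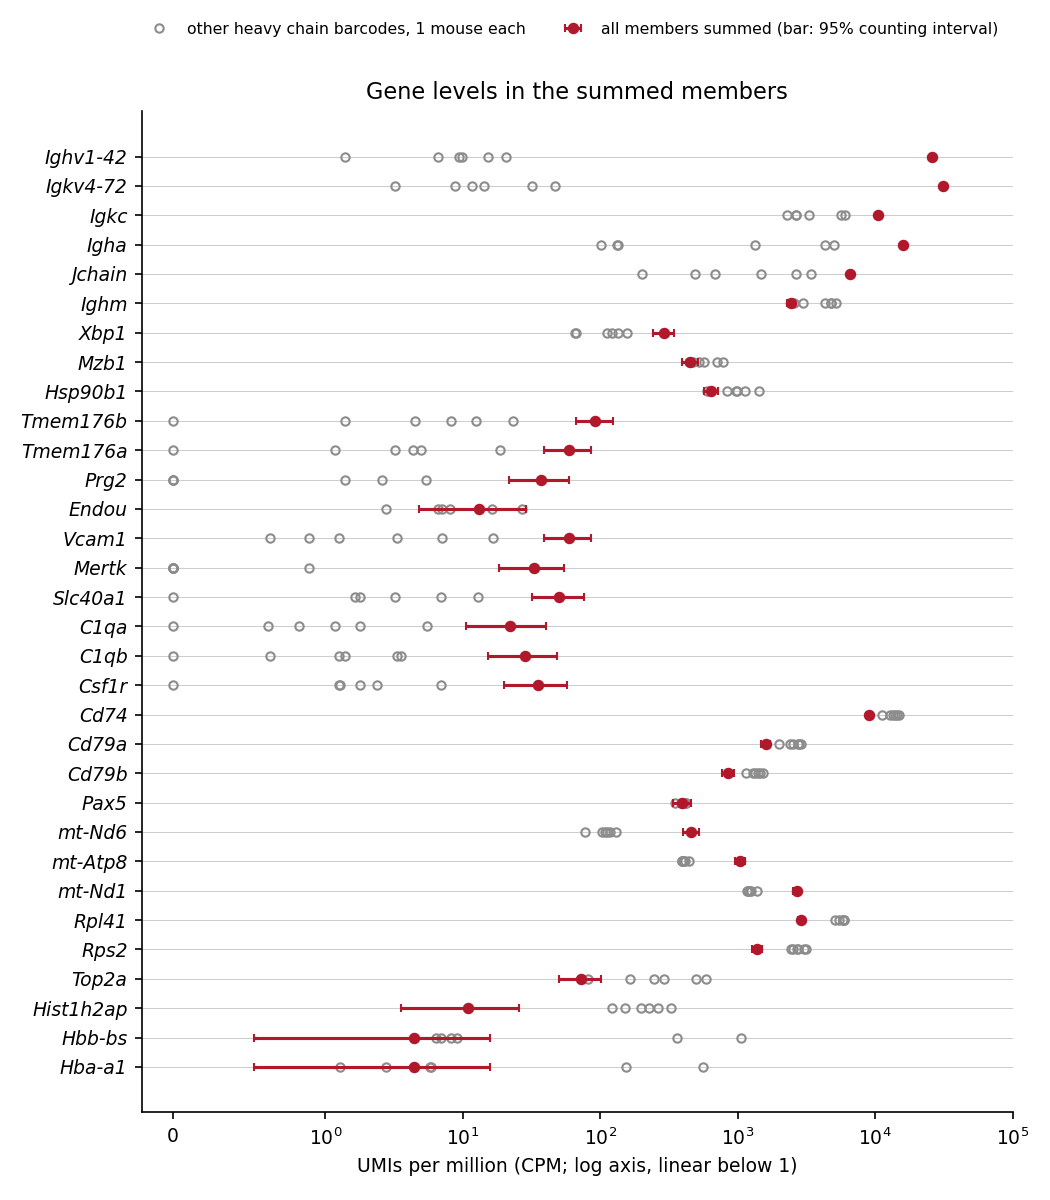
CPM of 32 genes (log axis, linear below 1) in all 191 members summed (filled, with 95% Poisson counting intervals) and in other heavy chain barcodes of each of the 6 mice (open). Igkv4-72 lies at 31386 CPM against at most 47.0, mt-Nd6 at 459.9 against at most 129.9, and Cd79a at 1599 against at least 1988.

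Of 6 mitosis genes tested, 2 fell, against 3.3% of all genes tested. Top2a, the DNA topoisomerase of dividing cells, gave 33 UMIs (72.3 CPM, 49.7 to 101) against 81.6 to 585, and fell (log2 -2.67, SE 0.48, adjusted p = 1.6e-06). Mki67, the proliferation marker, gave 118 UMIs (258 CPM) against 105 to 1009 and fell in the summed counts (log2 -1.35, adjusted p = 0.000106). It had a log2 of 0.50 with thinned barcodes. It missed the threshold with DESeq2 (adjusted p = 0.239), without the mouse term (0.322) and without LDHA-sufficient mouse 1 (0.111). A Mki67 UMI was held by 46.6% of members and 27.6% of other single-hashtag barcodes. With thinned barcodes these shares were 23.6% and 11.8%. Mki67 was thus found in a larger share of members, and its fall describes the sums only. Hist1h2ap, a replication histone gene chosen after its values were seen, gave 5 UMIs (10.95 CPM) against 122 to 328 and fell (log2 -3.65, adjusted p = 8.95e-06). No gene passed under both scalings among 4 germinal centre, 5 follicular, 4 marginal zone, 4 dissociation stress, 3 nuclear RNA, 2 myeloid and 1 stromal gene tested by edgeR. The platelet, eosinophil and T and NK lists were too low to test and gave 1, 14 and 3 UMIs in members. The 14 UMIs of the eosinophil list were 30.7 CPM, against 0 to 11.1 by mouse in the others, with 3 of its 5 genes at 0.

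Red cell genes were not raised in the members. The 13 genes together gave 21 UMIs (46.0 CPM), close to the lowest of the 6 mice of the others, which ran from 47.2 to 2367 CPM. Hbb-bs, Hba-a1 and Hba-a2, the adult globin genes, gave 2 UMIs each, and Hbb-bt 0, which allows up to 3. In the others Hbb-bt ran from 7.08 to 293 CPM by mouse (median 12.7). No gene of the list was tested by edgeR.

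Genotype was assigned by the hashtag call, in members with a single hashtag only. Their leading hashtag took a median of 40.1% of hashtag UMIs, and whether their RNA came from that mouse was not tested. They made up 2.17%, 2.69% and 2.32% of single-hashtag barcodes in LDHA-sufficient mice 1 to 3 and 2.08%, 0.272% and 2.90% in LDHA-deficient mice 1 to 3. The means were 2.39 ± 0.267% and 1.75 ± 1.35% (SD, n = 3 each), with no difference beyond the spread (exact two-sided permutation p = 0.6, the smallest possible being 0.1). Ldha, the targeted gene, had 1 UMI in each LDHA-sufficient member sum and none in those of LDHA-deficient mice 1 and 3, too few to check the labels. Over all members it gave 33 UMIs (72.3 CPM, 49.7 to 101), and it fell against other heavy chain barcodes with the same hashtag calls (log2 -2.57, SE 0.67, adjusted p = 0.00343), though not without LDHA-sufficient mouse 2 (adjusted p = 0.0524). That fit rests on 3 UMIs. Over all members the level was 0.436 times that of other single-hashtag barcodes, and in the 155 members outside the sums it was 81.3 CPM, within the 51.1 to 272 of the mice. In other heavy chain barcodes it was at 253, 272 and 166 CPM in LDHA-sufficient and 51.9, 51.1 and 71.9 CPM in LDHA-deficient mice.

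Of 189 genes tested within members between genotypes assigned in this way, 1 passed (0.529%). AY036118 was at 14625, 11911 and 13419 CPM in LDHA-sufficient and 20544 and 24428 CPM in LDHA-deficient member sums (log2 0.81, SE 0.12, edgeR adjusted p = 2.18e-09). In other heavy chain barcodes it was at 4440.2, 4976 and 5159 against 5598, 5030.1 and 5474 CPM. It also had the highest variance over mean between members, with 8 to 272 UMIs in each, and the 2 LDHA-deficient mice rest on 6 and 7 members. Here too the SE and adjusted p may not measure the spread between mice. With no expression filter no gene passed (85 of 8597 at an unadjusted p under 0.05), and DESeq2 called 1.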

How the data were processed

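RNA, hashtags and heavy chains were measured on 1 droplet lane (5' chemistry) from the spleens of 6 mice. Gene and hashtag values are raw UMI counts as deposited by the authors. The submitters' processing notes name Cell Ranger 6.0.0, Seurat 4.2.1 and mm10, and the file header of the gene matrix names Cell Ranger 6.0.2. The deposited heavy chain table gives UMI and read counts per contig and the authors' V identity as a fraction, printed as a percent. The sources used here do not say how clones were called.

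Members were matched by barcode. Hashtags were called with HTODemux (Seurat 5.3.0, quantile 0.99), and barcodes with hashtags of more than 1 mouse, possible doublets, stayed out of the sums. No other barcode filter was used. UMIs were summed by mouse and set (5 or more barcodes each) and tested in edgeR 4.0.16 (R 4.3.3; glmQLFit, robust, filterByExpr, TMM, Benjamini-Hochberg threshold 0.05) with the mouse of the hashtag call as a term. Member sums held 13727 to 22249 UMIs and other sums 723455 to 1598802. The use of library totals beside TMM, a minimum of 1 barcode and a leading hashtag of 50% or more were chosen after seeing the data. The fits were tested on simulated counts, with 200 changed genes of 5146. There TMM recovered 35% and library totals 43% of the genes changed by a log2 of 2. These rates may not hold for the real counts, whose median log2 was lower. DESeq2 1.42.0 was an alternative. Python 3.11.15 with scipy 1.17.1 gave the exact tests and intervals.

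Named genes are the 6 markers, Ldha, up to 10 antibody genes and 10 other genes past the threshold in each direction by size (the others with 1 direction in every mouse), and the 4 of each list with the smallest p. Genes named outside this rule (Iglv1, Gm42418, Lars2, Rplp1, Hist1h2ap, Ccr10, Mertk, Slc40a1, Spic, and Irf4, Prdm1, Sdc1, Tnfrsf17, Pax5, Tyrobp, Cst3, Lyz2, Csf1r, the C1q and the globin genes of the lists) were chosen after their values were seen. The members and lists were chosen with earlier results of these data known.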

Additional observations from a re-analysis of the deposited data

Results flagged for a closer look

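In 9 of 75 groups of mice checked, 1 mouse stood apart from the rest by Dixon's criterion. Chance meets it in about 1 in 20 groups of normally distributed values, a rate that need not hold for counts near 0. Among other heavy chain barcodes, LDHA-sufficient mouse 3 was above the rest for Tmem176a (18.8 CPM, the next mouse 4.95), Ccr10 (7.16, next 1.25), Mertk (0.895, next 0), Hbb-bs (1049, next 359) and Hba-a1 (564, next 154). Over all 6 mice, Mertk rests on 1 UMI and Ccr10 on 10 UMIs there. LDHA-deficient mouse 3 was above the rest for C1qa (5.53, next 1.79) and Csf1r (6.91, next 2.36), and LDHA-deficient mouse 1 for C1qc (4.72, next 1.38). Among member sums, Igkv6-32 was at 571 CPM in LDHA-sufficient mouse 3, the next being 228.

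A barcode with no heavy chain contig held 74 Ighv1-42 UMIs, within the members' range and above the 25 of the next barcode outside the set. It also held 48 Igkv4-72, 36 Igha and 16 Jchain UMIs among 2190, and hashtags of more than 1 mouse.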

How the results depend on the processing

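Of 5146 genes, 19 were higher and 332 lower in members with TMM. The counts were 32 and 59 with DESeq2, and 32 and 170 with library totals. The lower genes numbered 512 with no expression filter and 57 with barcodes thinned to 1000 UMIs. In members with a leading hashtag of 50% or more 4 were higher. Against other IgA barcodes, over 2 mice and 536 genes, 64 were higher and 85 lower. Leaving out each mouse gave 14 to 21 higher and 218 to 332 lower.

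Directions turned for 5 genes against other IgA barcodes: Igkc (log2 -2.95), Xbp1 (-2.04), Ighm (1.49), Ms4a1 (1.01) and Cd74 (0.39). They turned for 4 genes with a leading hashtag of 50% or more: mt-Nd1 (-0.052), mt-Nd3 (-0.14), Gm42418 (-0.22) and Lars2 (-0.42). In that fit the median log2 over all genes was -1.32, against -0.53 in the main fit, so these 4 stayed above the median gene. Mki67 turned with thinned barcodes (0.50). The cause was not tested.

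The sets were paired by the mouse of the hashtag call, which for members rests on mixed hashtags and was not tested. With no replicate block 27 genes were higher and 457 lower, and Igkc, Igkv6-32, Iglv1, Iglv2, Ldha and Mki67 lost their calls.

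Within members, genotype gave 1 gene, 0 with no expression filter, and 1 to 2 when each mouse was left out, 2 without LDHA-deficient mouse 3. The difference in share (LDHA-deficient minus LDHA-sufficient) was -0.637 percentage points, 0.302 with hashtags called by ratio, and -1.21 to 0.103 when each mouse was left out, the last without LDHA-deficient mouse 2. Hashtags called by ratio left 1 mouse for the fits, and a minimum of 10 barcodes and members with another clone left 0, so these were not run. Member sums hold few UMIs, so a gene that missed the threshold may still differ.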
